A study of Mus musculus with 3 samples.

Results

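Malat1, Neat1, Firre, Dleu2, Tug1, Kcnq1ot1 and Pvt1 are long noncoding RNAs known to be kept, wholly or in part, in the nucleus, and their levels and isoforms were read in RNA of the macrophage chromatin fraction. They were taken by gene symbol and make 7 of the 55536 annotated genes in the deposited gene tables, with 52 annotated transcripts between them. The series held 1 group of 3 libraries, called replicates 1, 2 and 3 as in the labels, each from the chromatin of bone marrow-derived macrophages of the mouse strain C57BL/6J. All 3 had received lipid A, the part of bacterial lipopolysaccharide that activates Toll-like receptor 4, at 100 ng/ml for 120 minutes, and no untreated or other cell fraction was analysed here, so nothing below shows an effect of lipid A or of the fraction. The RNA was total RNA depleted of ribosomal RNA, with fragments of 250 to 400 nt. Age and sex of the animals were not recorded. The labels number the 3 libraries as biological replicates 1, 2 and 3. The libraries also carry a common donor label, and no label names separate cultures. Whether the spread between them is biological or technical is therefore not known. Replicate 1 was made from 1 µg of RNA, replicate 2 from 250 ng and replicate 3 from 500 ng, and this amount cannot be told apart from the replicate.

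Annotated genes held 19751051, 20372850 and 21984526 expected counts in replicates 1, 2 and 3 (reads shared out by a model among the isoforms they match). All 9 listed macrophage markers averaged at least 1 TPM, while the defining T cell genes Cd3e and Cd3g and the neutrophil genes Elane and Ly6g were listed at 0 in every library. Of the other marker lists, 2 of 5 T cell genes (Lck and Cd4), 1 of 3 endothelial genes (Kdr), 1 of 4 erythroid genes (Alas2) and none of the 4 B cell, 3 natural killer cell, 6 neutrophil or 4 fibroblast genes averaged 1 TPM. Their summed levels across the libraries were 5.06 to 9.36 TPM for T cells, 3.64 to 5.94 TPM for endothelium, 0.93 to 2.94 TPM for erythroid cells and 0.27 to 1.95 TPM for neutrophils, and those of the remaining lists reached at most 0.8 TPM. Replicate 2 stood apart in mitochondrial RNA and in some messenger RNAs. Its mitochondrially encoded coding genes took 0.327% of counts, against 0.0391% in replicate 1 and 0.0338% in replicate 3. The 10 listed ribosomal protein genes summed to 612.1 TPM in it, against 144.3 TPM and 161.9 TPM. Its macrophage markers summed to 1553 TPM, against 474 TPM and 363.8 TPM. Lyz2 alone gave 873.19 TPM of that sum, and Mertk was lowest in replicate 2, at 59.89 TPM. Values without replicate 2 are therefore given beside the levels and ratios, and the part of such RNA in the results was not tested. TPM, used for levels below, is a level per length of RNA whose sum over a library is fixed. Values are from the main tables of expected counts unless the other quantifier, another deposited set of estimates made from the reads directly, is named. In bulk RNA, fewer cells of a type and less RNA per cell cannot be told apart.

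Most messenger RNAs are exported after processing, whereas these RNAs act in the nucleus, in part through their own sequence and in part by being transcribed at their locus. Malat1 collects in nuclear speckles, the stores of splicing factors. Neat1 has a short polyadenylated form and a long form made when transcription runs past the early poly(A) site, and only the long form builds paraspeckles, nuclear bodies that hold RNA-binding proteins. The long Neat1 and Malat1 transcripts end without a poly(A) tail: RNase P cuts upstream of a transfer RNA-like structure. A triple helix of U-rich stretches and an A-rich stretch protects the end. Firre is transcribed from the X chromosome, binds Hnrnpu and helps to organise chromatin. Kcnq1ot1 is made from the paternal chromosome antisense to Kcnq1 and represses the neighbouring imprinted genes. Dleu2 is the host transcript of 2 microRNA genes, Pvt1 lies beside the oncogene Myc, and Tug1 is a conserved RNA that is often kept in the nucleus with its introns unspliced.

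The 3′ ends show how the forms of Neat1 and Malat1 differ. They are GENCODE M21 transcript sequences (GRCm38, minus strand), written 5′ to 3′, at chr19:5795980-5796079 for Malat1-201, chr19:5824708-5824807 for the long form Neat1-201, and chr19:5842307-5842366 for the short form Neat1-202. Capitals mark a U-rich motif, TTTTGCT, and the A-rich AAAAGCA in the first 2, and the poly(A) signal AATAAA in the third. The marked motifs are not the whole of the triple helix.
Malat1-201: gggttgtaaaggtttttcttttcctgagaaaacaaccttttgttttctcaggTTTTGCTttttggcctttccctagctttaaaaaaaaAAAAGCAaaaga
Neat1-201: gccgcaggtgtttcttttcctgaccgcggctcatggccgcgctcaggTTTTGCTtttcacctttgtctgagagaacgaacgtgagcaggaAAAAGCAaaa
Neat1-202: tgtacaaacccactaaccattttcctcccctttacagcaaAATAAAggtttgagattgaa
TTTTGCT followed after 5 to 80 nt by AAAAGCA, with no overlap between the motifs and on the transcript strand only, was found in 44 of 18774 annotated long noncoding transcripts, or 0.234%, and in 3 of these AAAAGCA began within the last 60 nt. Among the 52 isoforms of the 7 genes it was in Malat1-201 and Neat1-201 alone. Its AAAAGCA begins 10 nt from the annotated end of Neat1-201 and 302 nt from that of Malat1-201, whose annotation runs on past the stretch shown. AATAAA lay in the last 40 nt of 23 of the 52 isoforms, against 27.1% of all annotated transcripts of at least 200 nt, and that window of the annotated transcript held it in Malat1-201 and not in Neat1-201.

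Both genes also have isoforms with an intron cut from within the unspliced RNA, and the 30 nt across the junction are shown because they are what tells the spliced form from the long one at its 5′ part. The 15 bases before the junction are in lower case and the 15 after it in capitals. The intron of Neat1-202 is 166 nt long at chr19:5844759-5844924 and that of Malat1-203 is 271 nt long at chr19:5801967-5802237, both on the minus strand of GRCm38, and both begin with GT and end with AG.
Neat1-202: ctctggcccagggtgATAGCAGTGCCCTCT
Malat1-203: tagtttgaaaatgagGTTAGGCTAGTATTT
The Neat1 junction is shared by 2 isoforms, Neat1-202 and Neat1-203, and the Malat1 junction belongs to Malat1-203 alone.

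Levels were spread over more than 3 orders of magnitude, with Malat1 at the top and Pvt1 and Kcnq1ot1 at the bottom. These levels count reads on annotated isoforms only, so reads in introns that no isoform covers are left out. Kcnq1ot1 and the longest isoforms of Malat1 and Neat1 cover the whole span of their genes. The longest isoform of Firre has 5555 nt in a span of 79578 nt, and that of Pvt1 has 3319 nt in 340111 nt. How far this shapes the order of levels was not tested. All 7 genes averaged at least 1 TPM, as did 1768 of the 5409 long noncoding genes of at least 200 nt with a read. The median over the 7 was 19.6, 27.6 and 41.9 TPM in replicates 1, 2 and 3, against 0.22, 0.31 and 0.42 TPM over those 5409 genes. Together the 7 took 4.84% to 8.23% of all annotated counts, most of it Malat1.

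**Figure D1:**
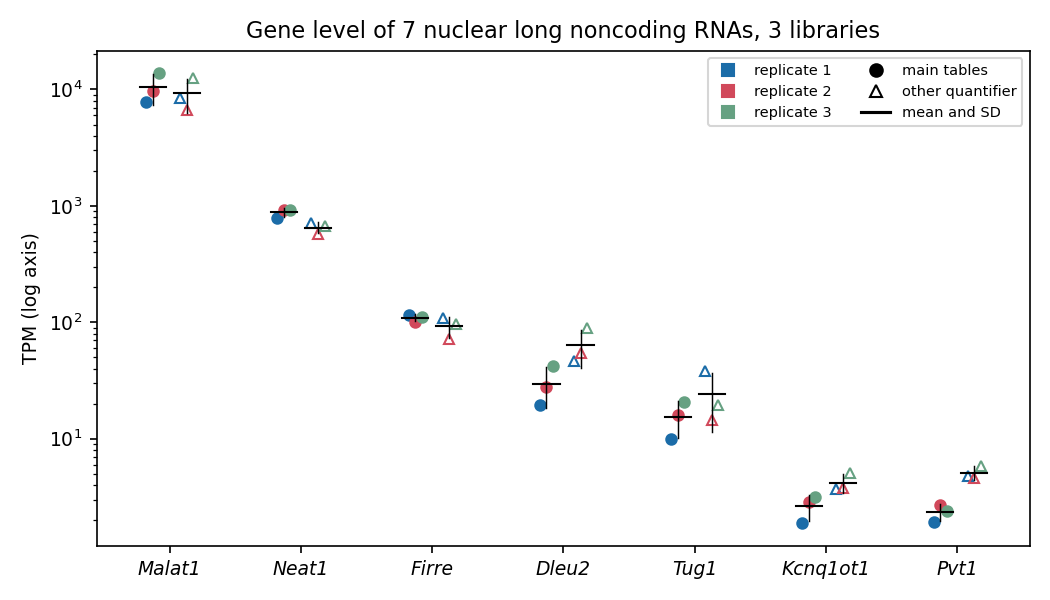
Gene level in TPM on a log axis for the 7 long noncoding RNAs in each of 3 libraries, with the mean (horizontal bar) and SD (vertical bar). Filled circles are the main tables of expected counts and open triangles the other quantifier; Malat1 lies at 6689 TPM or more in all 3 libraries by both, and Kcnq1ot1 and Pvt1 lie below 6 TPM.

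Malat1 (ENSMUSG00000092341.3, lincRNA, chromosome 19, 5795690 to 5802672, minus strand, GRCm38) had 7774.86, 9689.62 and 13784.31 TPM in replicates 1, 2 and 3, a mean of 10416 ± 3070 TPM (SD, n = 3), and 10780 TPM without replicate 2. It took 4.22%, 5.62% and 7.73% of annotated counts, with exact Clopper-Pearson 95% intervals of 4.21 to 4.23%, 5.61 to 5.63% and 7.71 to 7.74% that cover counting error only. The libraries thus lay much farther apart than counting error. It ranked 4 among 13219 long noncoding genes of at least 200 nt by TPM in all 3 libraries and 2 by counts. The genes above it by TPM include Gm42418, a gene of the ribosomal RNA locus, in each library.

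Neat1 (ENSMUSG00000092274.3, lincRNA, chromosome 19, 5824708 to 5845478, minus strand) had 783.7, 927.37 and 926.13 TPM, a mean of 879 ± 82.6 TPM (SD, n = 3), and 854.9 TPM without replicate 2. It ranked 5 or 6 among long noncoding genes in each library. Its counts ran the other way, with 111667, 77956 and 96808 expected counts, highest in replicate 1 where its TPM was lowest. With the other quantifier its TPM was 708.4, 573.0 and 669.2, highest in replicate 1 as well. A gene's TPM is the sum over its isoforms, each divided by its own length, and replicate 1 had more reads on the long form, as given below.

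Firre (ENSMUSG00000085396.7, processed transcript, chromosome X, 50555744 to 50635321, minus strand) had 115.99, 100.99 and 111.51 TPM, a mean of 109.5 ± 7.70 TPM (SD, n = 3), and 113.8 TPM without replicate 2. Its highest library was 1.15 times its lowest, and it ranked 10, 18 and 21 among long noncoding genes. This small spread depended on the scaling. With TPM rescaled to annotated genes of at least 200 nt outside the ribosomal RNA locus and Rmrp, Firre had 288.4 ± 73.75 TPM (SD, n = 3). The other quantifier spread it more, at 109.9, 71.5 and 95.9 TPM and ranks of 28, 49 and 72. Dleu2 (ENSMUSG00000097589.9, processed transcript, chromosome 14, 61602839 to 61682373, minus strand) had 19.62, 27.6 and 41.86 TPM, a mean of 29.7 ± 11.3 TPM (SD, n = 3), and 30.7 TPM without replicate 2. Tug1 (ENSMUSG00000056579.18, annotated as antisense, chromosome 11, 3639785 to 3649673, minus strand) had 9.9, 15.97 and 20.64 TPM, a mean of 15.5 ± 5.39 TPM (SD, n = 3), and 15.3 TPM without replicate 2. Both were lowest in replicate 1 and highest in replicate 3, at 2.13 and 2.08 times the lowest library. The median over the 5409 long noncoding genes with a read rose in the same order, from 0.22 to 0.42 TPM. Malat1 showed the same order of libraries, but with the other quantifier it had 8463, 6689 and 12551 TPM and was lowest in replicate 2.

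Kcnq1ot1 (ENSMUSG00000101609.2, antisense, chromosome 7, 143203458 to 143296549, minus strand) is a single unspliced transcript of 93092 nt, longer than all but 1 of the 13219 long noncoding genes. It had 1.88, 2.86 and 3.17 TPM, a mean of 2.64 ± 0.67 TPM (SD, n = 3), and 2.52 TPM without replicate 2. Because of that length the low TPM stood for many reads, 4116, 5592 and 6475 expected counts, close to those of Firre at 4711, 3851 and 4326. It ranked 17, 14 and 18 among long noncoding genes by counts, and 961, 966 and 1124 by TPM. Pvt1 (ENSMUSG00000097039.8, lincRNA, chromosome 15, 62037986 to 62378096, plus strand) was at a like TPM, 1.92, 2.69 and 2.41, a mean of 2.34 ± 0.39 TPM (SD, n = 3) and 2.17 TPM without replicate 2, from only 43, 49 and 46 expected counts.

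In order of mean TPM, 4 of the 6 neighbouring pairs had ranges that did not overlap over the 3 libraries. Malat1 averaged 11.8 times Neat1, Neat1 8.03 times Firre, Firre 3.69 times Dleu2, and Tug1 5.88 times Kcnq1ot1. With the other quantifier Firre and Dleu2 did overlap, at 92.4 ± 19.4 and 63.5 ± 23.1 TPM (SD, n = 3 each). The ranges of Dleu2 and Tug1 overlapped, although Dleu2 was the higher in each library. Kcnq1ot1 and Pvt1 could not be put in order: their ranges overlapped, Kcnq1ot1 was higher in 2 of 3 libraries, and the other quantifier put Pvt1 higher, at 5.07 ± 0.70 TPM against 4.2 ± 0.77 TPM for Kcnq1ot1 (SD, n = 3 each).

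Isoforms were read next, with the longest annotated form of each gene set against the sum of its others. Over all 8324 genes with at least 2 isoforms and a mean count of 50 or more, the longest isoform was the higher in 14.2% and the lower in 56.6% (limma moderated test of log2 TPM ratios with a pseudocount of 0.1, Benjamini-Hochberg adjusted p under 0.05). Of the 5 of these 7 genes that entered the test, Malat1 was called with its longest isoform higher and Neat1, Firre, Dleu2 and Tug1 with it lower. That is 1 of 5 and 4 of 5 beside those shares, and the median ratio was -1.77 over the 5 genes, against -1.22 over all genes tested and 0.43 over the 244 long noncoding genes among them, on the log2 scale. Of those 244 genes, 105 were called with the longest isoform higher and 74 with it lower. The sum held 3 other isoforms in Malat1 and in Neat1, 7 in Tug1, 9 in Firre and 14 in Dleu2. A call of lower therefore does not mean that any one of them exceeded the longest. The part of the number of isoforms in these calls was not tested. Kcnq1ot1 has 1 annotated isoform and Pvt1 had too few counts. None of the 52 isoforms is annotated as having a retained intron.

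**Figure D2:**
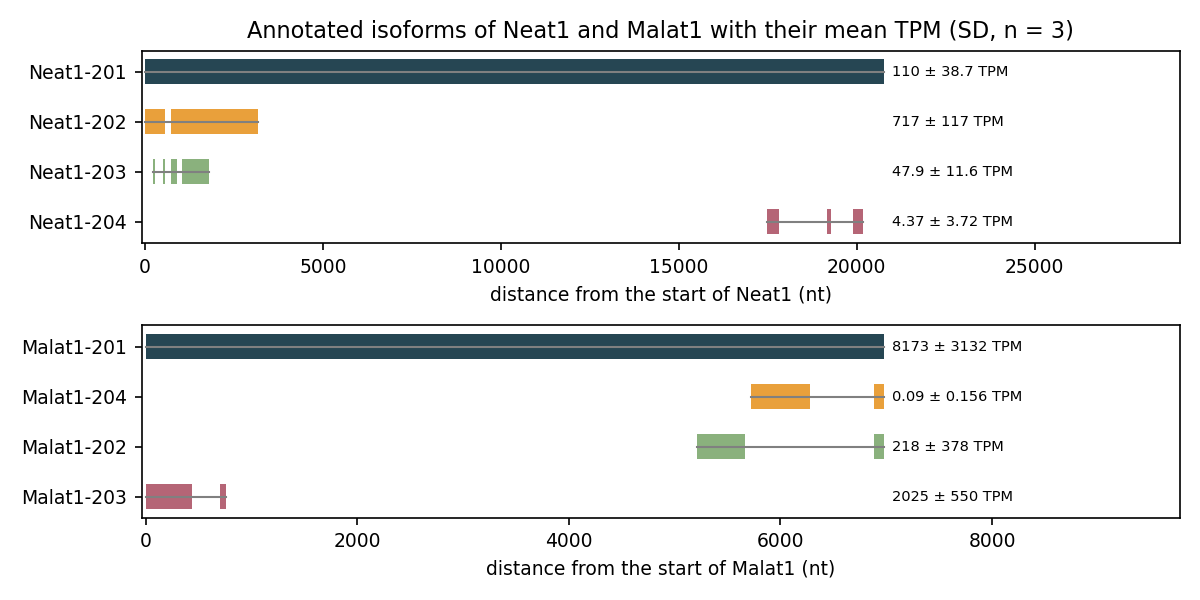
Exons of the annotated Neat1 and Malat1 isoforms as blocks along the distance from the start of each gene in nt, with mean TPM ± SD over 3 libraries at the right. Neat1-202 and Neat1-203 lie within the first part of Neat1-201, and Malat1-203 within the first part of Malat1-201.

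The short form of Neat1 was the more abundant in every library when length was taken into account. The long form Neat1-201 (20771 nt, 1 exon) had 149.31, 71.91 and 108.93 TPM in replicates 1, 2 and 3, a mean of 110.0 ± 38.7 TPM, against 582.34, 793.42 and 774.45 TPM and a mean of 717 ± 117 TPM for the short form Neat1-202 (3004 nt, 2 exons; SD, n = 3 each). The ranges of the 2 forms did not overlap, and the long form stood at 0.256, 0.0906 and 0.141 of the short one. Against all other isoforms the log2 ratio of the long form was -2.09, -3.57 and -2.91, a mean of -2.85 with an SD of 0.74 over 3 libraries and an adjusted p of 0.00161 by limma. Without replicate 2 it was -2.50 (adjusted p = 0.00132 by limma).

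By reads rather than TPM the picture was different. Neat1-201 took 72389, 31073 and 49153 expected counts, against 38337, 45882 and 46945 for Neat1-202, which made 64.8%, 39.9% and 50.8% of the gene's counts from the long form. With counts in place of TPM the log2 ratio was 0.11 and was not called (adjusted p = 0.815 by limma). The long form's share was thus largest in replicate 1 and smallest in replicate 2 on either scale, with 19.1%, 7.75% and 11.8% of the gene's TPM. Replicate 2 is also the library with most mitochondrial RNA, and whether this bears on the share was not tested.

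Of the other forms, Neat1-203 (1030 nt, 4 exons, inside the 5′ part) had 43.67, 61.02 and 39.03 TPM. Neat1-204 (711 nt, 3 exons, near the 3′ end of the long form) had 8.38, 1.03 and 3.71 TPM from 99, 10 and 38 expected counts. Like the long form it was highest in replicate 1 and lowest in replicate 2. Since Neat1-202 lies within the span of Neat1-201, reads in the shared part were divided between them by each quantifier's model. The other quantifier gave 109.4, 41.6 and 71.1 TPM for Neat1-201, against 555.5, 495.7 and 562.8 TPM for Neat1-202, with the libraries in the same order for the long form.

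**Figure D3:**
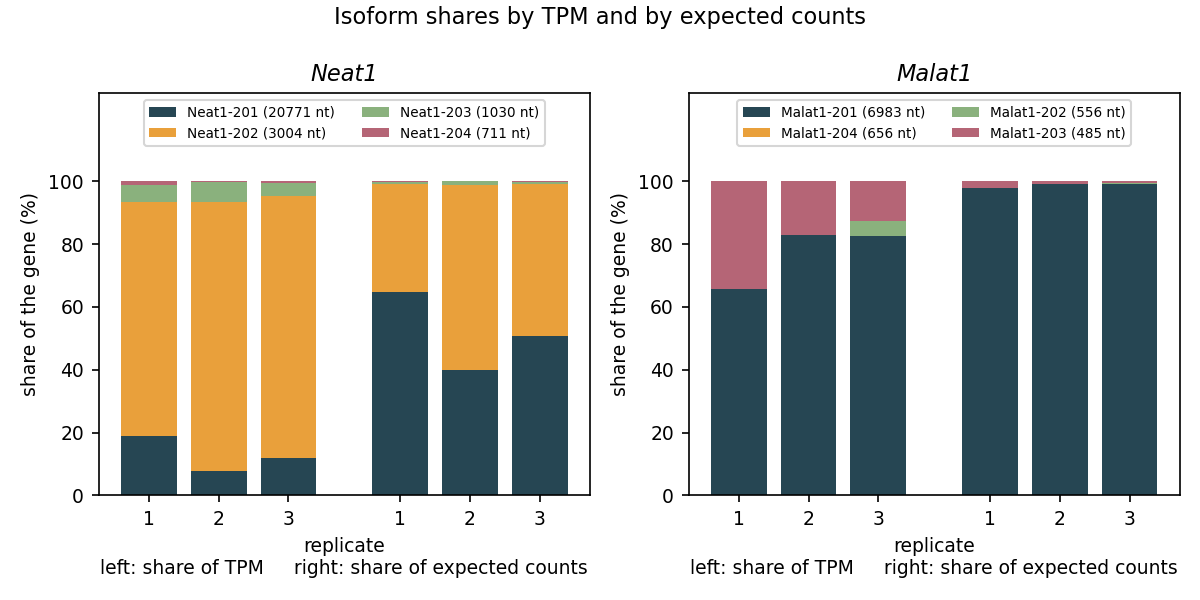
Share of each annotated isoform in the gene's TPM (left bars) and expected counts (right bars) for Neat1 and Malat1 in replicates 1, 2 and 3. Neat1-201 holds 7.75% to 19.1% of TPM and 39.9% to 64.8% of counts, and Malat1-201 holds 65.8% to 82.8% of TPM and 97.9% to 99.3% of counts.

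For Malat1 the long unspliced form was the main one. Malat1-201 (6983 nt, 1 exon) had 5116.67, 8026.55 and 11374.99 TPM in replicates 1, 2 and 3, against 2658.19, 1662.8 and 1754.67 TPM for Malat1-203, the 485 nt isoform spliced across the junction shown above. The ranges of these forms did not overlap, and the long form held 97.9%, 99.3% and 99.2% of the gene's counts. Its log2 ratio over all others was 0.94, 2.27 and 2.24, a mean of 1.82 with an SD of 0.76 over 3 libraries and an adjusted p of 0.00787 by limma, and 1.59 without replicate 2 (adjusted p = 0.0172 by limma).

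That call ended with the other quantifier, which gave a log2 ratio of 0.53 (adjusted p = 0.183 by limma). It placed Malat1-201 at 3920, 4708 and 7479 TPM, against 4544, 1981 and 4512 TPM for Malat1-203, so that in replicate 1 the short isoform was the higher. Malat1-202 (556 nt) appeared in replicate 3 alone in the main tables, at 654.65 TPM from 4465 expected counts, and was listed at 0 in the others. Malat1-204 (656 nt) had no more than 2 counts in any library of the same tables. Both splice to an exon at the annotated 3′ end of the gene, beyond the stretch with the triple-helix motifs.

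Firre was spread over many isoforms and their order changed little between libraries. Firre-202 (715 nt) led with 36.01, 38.21 and 40.08 TPM. The longest, Firre-206 (5555 nt, 20 exons), followed at 24.99, 24.14 and 25.21 TPM, an SD of 0.57 TPM over 3 libraries. Firre-203 had 24.23, 16.11 and 21.19 TPM, Firre-210 had 9.6, 5.84 and 7.01 TPM, and Firre-204 had 9.14, 5.91 and 5.61 TPM. Firre-208 (3850 nt) averaged 5.36 ± 0.58 TPM, and Firre-209, Firre-207 and Firre-201 averaged 1.42 to 2.56 TPM (SD, n = 3).

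The longest Firre isoform had a log2 ratio over the others of -1.86, -1.67 and -1.77, a mean of -1.77 with an SD of 0.10 over 3 libraries and an adjusted p of 0.00206 by limma, and -1.82 without replicate 2. On counts the sign was the opposite, at 1.11 (adjusted p = 0.0202 by limma), because Firre-206 held 66.8% to 69.9% of the gene's counts over a far longer RNA. The longest isoform of Firre thus held a minority of the gene's TPM and a majority of its counts in all 3 libraries. The spans of Firre-202, Firre-203 and Firre-204 overlap that of Firre-206, so any shared reads were divided between them by the model.

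**Figure D4:**
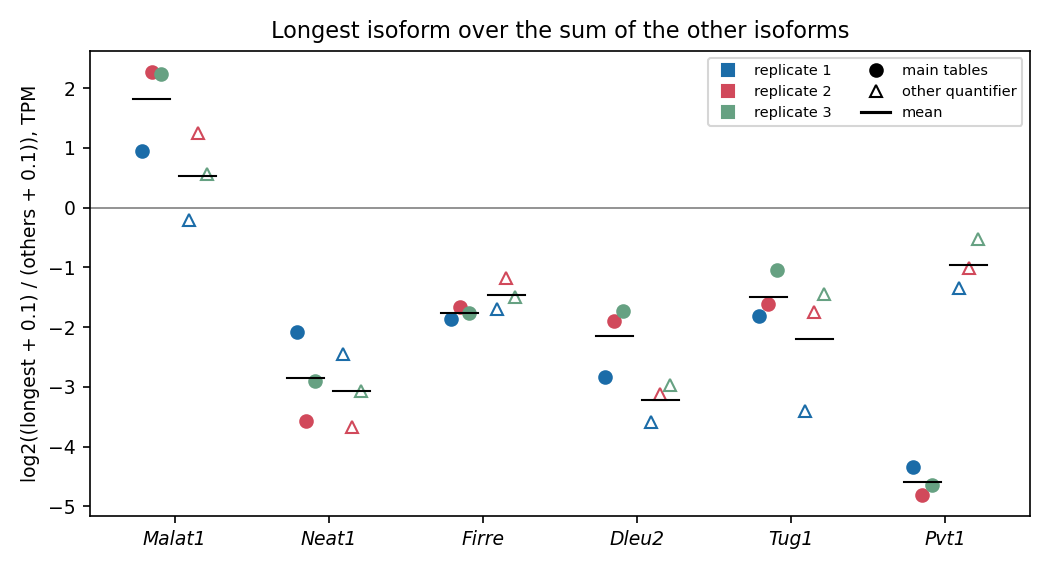
Log2 ratio of the longest isoform over the sum of the other isoforms, in TPM with a pseudocount of 0.1, for 6 genes in replicates 1, 2 and 3; bars are means. In the main tables (filled circles) Malat1 lies above 0 in all 3 libraries and the other 5 genes below it; with the other quantifier (open triangles) replicate 1 of Malat1 lies below 0.

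Dleu2 has 15 annotated isoforms, of which 7 averaged at least 1 TPM. Dleu2-207 (3530 nt, 3 exons) was the highest on average at 3.4, 7.15 and 11.29 TPM, followed by the longest, Dleu2-215 (4098 nt, 1 exon), at 2.35, 5.79 and 9.67 TPM. Both were more than 3 times as high in replicate 3 as in replicate 1. The shorter Dleu2-210 (722 nt) and Dleu2-206 (318 nt) had 4.02, 3.22 and 5.26 TPM and 4.33, 2.44 and 4.43 TPM, and both were above Dleu2-207 in replicate 1. The values of Dleu2-206 rest on 12, 4 and 9 counts, and the other quantifier gave it 11.0, 17.3 and 24.5 TPM, a mean of 17.6 TPM against 6.14 TPM for Dleu2-207, so the order of these isoforms rested on the quantifier. Dleu2-202, Dleu2-214 and Dleu2-201 averaged 2.66, 2.25 and 1.37 TPM, and 4 isoforms were listed at 0 in every library. The log2 ratio of the longest over the others was -2.83, -1.90 and -1.72, a mean of -2.15 with an SD of 0.59 over 3 libraries and an adjusted p of 0.00286 by limma, and -2.28 without replicate 2.

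Dleu2 carries miR-15a and miR-16, which lower the level of cell cycle and survival proteins and lie within its span on the same strand. Their mature sequences are from RefSeq (GRCm38.p6, chr14:61632075-61632096 and chr14:61631936-61631957, minus strand), with the seed, bases 2 to 8, in capitals to show that it is the same in both.
mmu-miR-15a-5p: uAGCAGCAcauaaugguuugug
mmu-miR-16-5p: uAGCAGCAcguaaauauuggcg
The hairpin genes Mir15a and Mir16-1 were listed at 0 counts in all 3 libraries in the main tables, and at means of 22.4 and 2.84 TPM with the other quantifier. Their spans of 84 and 93 nt are shorter than the selected fragments of 250 to 400 nt, so these libraries do not measure the mature microRNAs.

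Tug1 was divided among 4 isoforms, none of them dominant. Tug1-205 (1612 nt, 1 exon) had 2.35, 4.66 and 5.75 TPM, the longest Tug1-201 (6719 nt, 2 exons) 2.14, 3.88 and 6.72 TPM, Tug1-207 (3853 nt) 1.75, 3.4 and 5.4 TPM, and Tug1-202 (4720 nt, 4 exons) 3.27, 4.02 and 2.78 TPM. The first 3 were lowest in replicate 1 and highest in replicate 3, and Tug1-202 was not. The log2 ratio of Tug1-201 over the others was -1.81, -1.61 and -1.04, a mean of -1.49 with an SD of 0.40 over 3 libraries and an adjusted p of 0.00624 by limma, and -1.43 without replicate 2. On counts it was -0.44 and was no longer called (adjusted p = 0.279 by limma).

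The quantifiers differed widely within Tug1. The other quantifier assigned Tug1-207 3716, 998 and 1226 counts, or 32.3, 6.84 and 9.20 TPM, and Tug1-202 0, 42 and 0 counts. With it Tug1 as a whole was highest in replicate 1, at 38.5 TPM against 14.4 TPM in replicate 2 and 19.5 TPM in replicate 3, so the order of the libraries for Tug1 also rested on the quantifier. Pvt1 differed too, with 4.9 to 7.6 times as many counts from the other quantifier as in the main tables. Its highest isoforms in the main tables, Pvt1-209 (745 nt) and Pvt1-205 (501 nt), had 0.51, 1.13 and 0.28 TPM and 0.29, 0.58 and 0.89 TPM. The longest form, Pvt1-202 (3319 nt, 10 exons), was listed at 0 in all 3 libraries there, but at 1.3, 1.5 and 2.38 TPM from 127, 187 and 271 counts with the other quantifier.

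Counts of these RNAs were then compared between the libraries after scaling by trimmed mean of M values (TMM). A chi-square test against equal scaled levels, Benjamini-Hochberg adjusted over 14184 genes averaging 10 or more counts, called 68.8% of all genes and 6 of these 7, so being called says little about a gene here. The median coefficient of variation was 23.2% over all genes tested, 28.8% over the 2392 long noncoding genes of at least 200 nt among them, and 20.98% over the 7.

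In the main tables Dleu2 had the largest coefficient of variation of the 7, with 40.3, 66.4 and 87.3 scaled CPM (counts divided by the scaled library total) in replicates 1, 2 and 3 and a value of 36.4% (chi-square adjusted p = 3.85e-73). Malat1 had 46428, 56056 and 70460 scaled CPM (20.98%) and Tug1 52.8, 63.5 and 75.9 scaled CPM (18.0%, chi-square adjusted p = 1.76e-18). These 3 genes were lowest in replicate 1 and highest in replicate 3. Neat1 had 6215, 3816 and 4016 scaled CPM (28.4%) and Firre 262.2, 188.5 and 179.5 scaled CPM (21.6%, chi-square adjusted p = 1.32e-83), and both were highest in replicate 1. Neat1 and Malat1, whose genes lie next to each other, so took opposite places in that library, Neat1 at 1.33 times and Malat1 at 0.805 times its own mean.

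The size of this variation depended on the quantifier and on single libraries. With the other quantifier the coefficient of variation was 72.9% for Tug1, 44.3% for Neat1, 31.6% for Firre, 16.6% for Dleu2 and 6.37% for Malat1, so that Dleu2 no longer led. Without replicate 1 it was 3.61% for Neat1, 3.48% for Firre and 19.3% for Dleu2, and without replicate 3 it was 8.69% for Malat1 and 8.40% for Tug1. All of these but Firre without replicate 1 were still called by the chi-square test. With library totals in place of TMM the coefficient was 12.8% for Firre and 17.4% for Kcnq1ot1.

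Kcnq1ot1 was among the steadier RNAs, with 229.1, 273.8 and 268.6 scaled CPM. Its coefficient of variation of 9.50% was undercut by 13.6% of genes, yet its counts still passed the test (chi-square adjusted p = 4.97e-19). Its call, like that of Firre, rested on replicate 1, since without that library the adjusted p was 0.411 for Kcnq1ot1 and 0.0546 for Firre by the same chi-square test. Pvt1, with 2.39, 2.40 and 1.91 scaled CPM, showed no difference that its counts could resolve (chi-square adjusted p = 0.497). The test takes reads as independent and its p-values measure the spread between these libraries only.

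**Figure D5:**
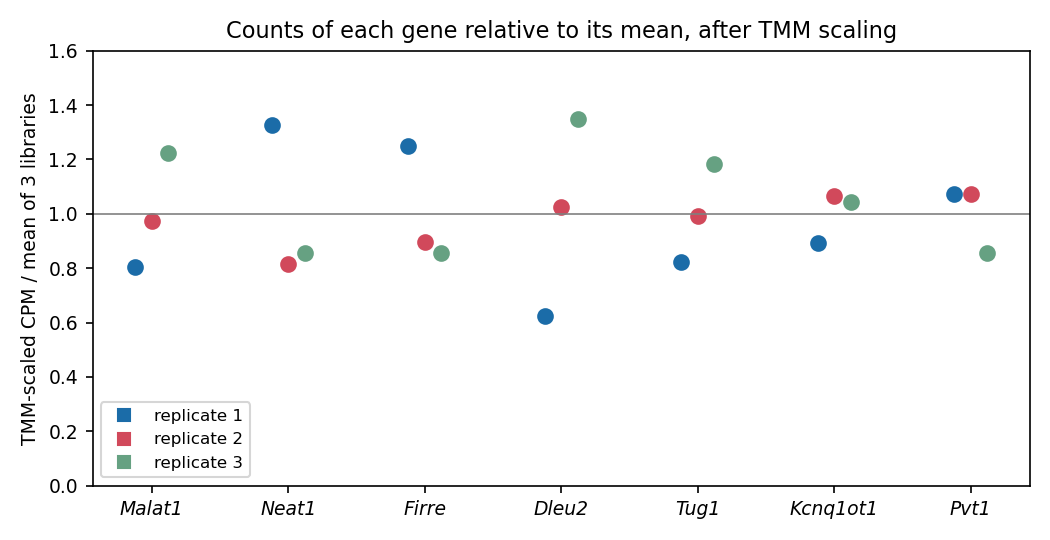
TMM-scaled CPM of each gene divided by its mean over 3 libraries, for replicates 1, 2 and 3; the line at 1 is the mean. Values are from the main tables, in which Malat1, Dleu2 and Tug1 are lowest in replicate 1 and highest in replicate 3, while Neat1 and Firre are highest in replicate 1, at 1.33 and 1.25.

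The loci were described next, since several of the 7 are known for acting on or beside their neighbours. Malat1 and Neat1 lie on the same strand as Frmd8, a protein-coding gene 4224 nt from Neat1, which averaged 13.5 ± 4.28 TPM (SD, n = 3). Its level of 8.76, 14.73 and 17.05 TPM was lowest in replicate 1. Myc, which encodes a growth-promoting transcription factor, lies 47612 nt from Pvt1 and had 2.6, 1.41 and 1.14 TPM, against 1.92, 2.69 and 2.41 TPM for Pvt1. The coding neighbours of Firre were at 0 for Olfr1324 and 0.34 TPM for Stk26, those of Tug1 at 0.28 TPM for Smtn and 2.15 TPM for Osbp2, and those of Dleu2 at 7.85 TPM for Spryd7 and 0 for Dleu7. Gsdmc, on the other side of Pvt1, was listed at 0.

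In the imprinted domain that Kcnq1ot1 is known to silence on the paternal chromosome, 3 of 10 listed genes averaged at least 1 TPM. These were Cd81, which encodes a membrane tetraspanin, at 18.3 ± 4.67 TPM, Tssc4 at 2.77 ± 1.09 TPM and Tspan32 at 1.04 ± 0.32 TPM (SD, n = 3). Kcnq1, a potassium channel gene that contains the whole of Kcnq1ot1 on the other strand, had 3, 2 and 1 counts, or 0.07, 0.84 and 0.02 TPM, beside at least 4116 counts on Kcnq1ot1. The nearest coding genes outside Kcnq1 were Trpm5 at 0.62 ± 0.44 TPM and the cell cycle inhibitor Cdkn1c at 0.85 ± 0.59 TPM, and the lowest of the list was Th at 0. The tables do not separate the parental alleles.

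Overlapping annotations limit how reads can be assigned, because the sources used here do not give the strand setting of the counting. Dleu2 overlaps 13 other annotated genes, 7 of them averaging 10 or more counts. On its own strand these were Gm37472 at 10.1 ± 3.12 TPM, Gm37420 at 10.1 ± 3.65 TPM and Gm27010 at 2.59 ± 1.47 TPM (SD, n = 3). All 3, like Dleu2 and the median of long noncoding genes with a read, were lowest in replicate 1 and highest in replicate 3. The others of the 7 were on the opposite strand. They were Gm27928 at 14.1 TPM, Gm27017 at 3.66 TPM, Trim13, a ubiquitin ligase gene, at 3.17 ± 0.35 TPM and Kcnrg at 0.50 TPM. Tug1 overlaps Morc2a (12.4 ± 2.51 TPM) on the opposite strand over 483 nt, and Pvt1 the pseudogene H2afy3 (0.54 ± 0.32 TPM). The stretch shared with Morc2a lies within the exon of Tug1-205. Whether reads of Morc2a were assigned to that isoform was not tested. None of the 2 genes overlapping Malat1, the 3 overlapping Neat1 and the 5 overlapping Kcnq1ot1 had a mean count of 10 in the main tables. One of those at Malat1, Gm37376 on the opposite strand over 453 nt, was listed at 0 there and at a mean of 467.7 TPM with the other quantifier. No annotated gene overlaps Firre.

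Proteins known to work with these RNAs had transcripts in the same libraries. All 15 listed paraspeckle protein genes averaged at least 1 TPM, with a median of 46.9 TPM. Among the 3 highest were Hnrnpk at 140.5 ± 7.20 TPM and Sfpq at 133.1 ± 6.82 TPM, both RNA-binding proteins, and the lowest was the cleavage factor gene Nudt21 at 1.47 ± 0.16 TPM (SD, n = 3). All 9 listed nuclear speckle genes did so too, with a median of 76.8 TPM, led by Srrm2 at 390 ± 56.1 TPM, Son at 213.1 ± 43.5 TPM and Sf3b1 at 166.8 ± 26.3 TPM, while Srsf1 was lowest at 15.6 ± 3.33 TPM. Hnrnpu, the binding partner of Firre, had 85.1 ± 10.3 TPM, and Ezh2, the methyltransferase of Polycomb repressive complex 2, had 4.84 ± 0.19 TPM.

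Among 11 other nuclear long noncoding RNAs, 6 averaged at least 1 TPM. Xist, which coats the inactive X chromosome, had 1228.17, 774.45 and 941.81 TPM, Gas5 averaged 57.7 ± 11.0 TPM and the imprinted antisense RNA Airn 15.9 ± 1.15 TPM (SD, n = 3), while Miat and Hotair were listed at 0. Xist was also the long noncoding gene closest in level to Neat1 out of 13218 others, by the distance between their 3 values of log2(TPM + 0.1), which was 0.70. Gm42418, a gene of the ribosomal RNA locus, was the closest to Malat1 at a distance of 1.46, the widest gap of the 7. Whether its reads are leftover ribosomal RNA was not tested. The closest for the others were Zfas1 for Firre at 0.18, Gm42820 for Dleu2 at 0.21, Gm48678 for Tug1 at 0.13, Gm42934 for Kcnq1ot1 at 0.10 and Gm37333 for Pvt1 at 0.23, over 3 libraries each.

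In sequence the 7 were long, but otherwise not alike. Their longest isoforms ran to 93092 nt for Kcnq1ot1, 20771 nt for Neat1, 6983 nt for Malat1, 6719 nt for Tug1, 5555 nt for Firre, 4098 nt for Dleu2 and 3319 nt for Pvt1, against a median of 1210 nt over 13219 long noncoding genes. Exons in these longest isoforms numbered 1 in Kcnq1ot1, Neat1, Malat1 and Dleu2, 2 in Tug1, 10 in Pvt1 and 20 in Firre, against a median of 2. GC content was 34.5% in Dleu2, 37.9% in Tug1, 40.3% in Kcnq1ot1, 42.5% in Malat1, 45.9% in Pvt1, 47.3% in Neat1 and 50.6% in Firre, on both sides of the median of 45.8%.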

How the data were processed

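RNA of the chromatin fraction of 3 macrophage libraries, 1 group by the labels, was read from tables the authors deposited. Gene and transcript tables give expected counts, TPM and the percentage each isoform takes of its gene, per the file headers, whose layout is that of RSEM; a deposited note says that transcriptome alignments to mm10 with GENCODE M21 were used. Another transcript table, of estimated counts and TPM in the layout of kallisto, was made by the authors directly from the reads and is called the other quantifier; its transcripts were summed per gene here. The sources used here give neither tool versions nor the strand setting. Deposited interval bounds of TPM lie around a posterior mean below the TPM itself, with no level stated, and are not reported.

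Annotation and transcript sequences are GENCODE M21 (GRCm38), which matched 55536 of 81881 gene entries. Unmatched entries, 0.179% to 0.845% of counts, entered neither library sizes nor tests. Total expected counts were 19919358, 20430415 and 22023921. No pair of libraries held the same values: at most 117 of 23493 genes had equal expected counts above 10.

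Isoform ratios, log2 of TPM + 0.1 of the longest isoform over the sum of the others, were tested against 0 with limma 3.58.1 (two-sided, Benjamini-Hochberg). Rounded expected counts were tested between libraries by chi-square with 2 degrees of freedom and TMM factors from edgeR 4.0.16, in R 4.3.3; CPM were computed with the same factors. DESeq2 1.42.0 gave alternative size factors. Both tests were also run on simulated data. The simulated ratios held no sharing of reads between isoforms. Outside the genes changed on purpose, the simulated counts held no spread beyond counting error. They therefore do not show how the tests behave on these libraries. Figures used matplotlib 3.10.9 in Python 3.11.15.

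The 7 genes, the gene lists and the rule for named genes were chosen with earlier results of these data known. Named are the 7 genes, their isoforms averaging at least 1 TPM and the 2 highest of each, overlapping genes averaging 10 or more counts, the nearest coding genes, the 3 highest and the lowest of each list, and the closest long noncoding gene in level, except that 2 genes the rule names are not reported here; other names (Gm37376, Pvt1-202, Malat1-204, Mir15a, Mir16-1 and the markers given as 0) were chosen after their values were seen.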

Additional observations from a re-analysis of the deposited data

How the results depend on the processing

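The median level of the 7 genes, 29.7 TPM, was 63.5 TPM with the other quantifier, 76.5 TPM with TPM rescaled to annotated genes of at least 200 nt outside the ribosomal RNA locus and Rmrp, and 66.6 with counts divided by gene length without effective length, on the same scale; the last 2 raised all 7 genes together. It was 23.6 to 34.7 TPM with 1 replicate left out. Genes with the longest isoform higher numbered 2041 of 12044 with the other quantifier and 2714 of 8324 with expected counts, against 1182 of 8324, and 913 to 1034 with 1 replicate left out. Genes with it lower numbered 8091 and 2341, against 4715, and 3911 to 4329 with 1 replicate left out. On expected counts, with no division by isoform length, the ratio turned to 0.11 for Neat1 and 1.11 for Firre. The calls of Tug1 (on counts) and Malat1 (other quantifier) ended, as given in the report. Pseudocounts of 0.01 and 1, a minimum count of 10 and leaving out 1 replicate ended none of the 5 isoform calls; with that minimum Pvt1 entered the test at -4.60, a ratio that rests on a longest isoform at 0, and with the other quantifier at -0.96 (adjusted p = 0.015 by limma). Genes varying between libraries numbered 9653 with DESeq2 size factors and 10518 with library totals, against 9763, each of 14184 tested. With no minimum count they numbered 10244 of 23415, and with the other quantifier 13591 of 23293. With 1 replicate left out they numbered 6686 to 7753, of 14012 to 14360 tested. No paired analysis was possible because there is a single group. With 43 to 49 counts, the isoforms of Pvt1 cannot be resolved at this depth.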
